A study of Mus musculus with 6 samples.

Results

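Oxidative phosphorylation genes were read in plasmacytoid dendritic cells (pDCs) that had differentiated ex vivo with or without deletion of Gfi1 and Gfi1b. The genes were chosen by name, as nuclear-encoded subunits of complexes I to V (symbols of the Ndufa, Ndufb, Ndufc, Ndufs and Ndufv series, Sdha to Sdhd, Uqcr and Uqcc, Cox4 to Cox8, and Atp5, with Cox6a2, the Ndufaf assembly factors and pseudogenes left out). The rule went by gene name, but it was chosen with earlier results of these data known. The rule found 107 probe sets for 83 genes among the 19937 genes named on the array, and for each gene the probe set with the highest mean was kept. Complex I had 35 genes, complex II 4, complex III 11, complex IV 16 and complex V 17. Genes were placed by name alone, so Ndufa4 and Ndufa4l2 counted in complex I. The assembly factors Uqcc1, Uqcc2 and Uqcc3 counted in complex III, and all 83 are called subunit genes below.

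Oxidative phosphorylation takes place in the inner mitochondrial membrane. Complexes I and II pass electrons from NADH and succinate to ubiquinone, complex III passes them on to cytochrome c, and complex IV to oxygen, while the protons moved by complexes I, III and IV drive ATP synthesis by complex V. Each complex except II combines subunits encoded in the nucleus with others encoded by the mitochondrial genome, and several complex IV subunits have tissue-restricted isoforms that replace the ubiquitous one. In dendritic cells the balance between this pathway and glycolysis is known to shift with activation.

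Total bone marrow of 3 C57BL/6 mice, all Gfi1f/f; Gfi1bf/f; ERCre, was cultured in 25 ng/ml Flt-3L, and each mouse gave 1 culture to each group. KO cultures received 1 µM tamoxifen during differentiation and WT cultures received no agent, so the floxed alleles and the inducible Cre were present in both groups. B220+ CD11c+ cells were sorted, and 200 ng of total RNA per culture was read on a Mouse Gene 1.0 ST array, which gave 3 KO and 3 WT arrays. In the study's mice the tamoxifen-activated Cre was expressed from the Rosa26 locus, and its genotyping PCR found deletion in pDC cultures to be inefficient, so KO cultures may have held undeleted cells. The age of the mice was not given in the sources used here. All KO cultures and no WT culture had tamoxifen, so the drug and the deletion cannot be told apart. With 3 arrays a group the number of arrays limited the precision, and an exact permutation test of a single gene cannot go below p = 0.1.

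The targeted genes did not read lower on the KO arrays. Gfi1b read 194, 279 and 259 on the KO arrays of mice 1, 2 and 3, against 179, 161 and 155 on the WT arrays, and Gfi1, on average below the level of 62.5 set by odorant and vomeronasal receptor genes, read 60.5, 67.1 and 61.9 on KO and 56.1, 47.8 and 43.3 on WT arrays. Which exons these probe sets cover, and so whether they lie in the deleted part, was not examined, so KO and WT below mean the arrays labelled so and every direction rests on those labels. The study also ran RT-qPCR for Rag transcripts on the cultures before hybridisation, which was not analysed here. All 12 pDC marker genes read above background. Markers of other cells moved with the group and with the mouse. Summed over 10 stromal genes, intensity was 590, 4358 and 4774 on the KO arrays of mice 1, 2 and 3, against 669, 12205 and 14110 on the WT arrays, and 10 macrophage genes summed to 4471, 16859 and 19297 in KO and 5217, 21785 and 22851 in WT. All 10 genes of each list had a lower mean in KO, as did 8 of 10 neutrophil genes, whereas 11 of the 12 pDC genes had a higher mean in KO. The pDC genes summed to 42045, 31138 and 28968 on the KO arrays, against 43900, 24619 and 20811 on the WT arrays, and their median log2 difference was -0.11, 0.32 and 0.58 within mice 1, 2 and 3, so mouse 1 ran against the other two. Both mouse 1 arrays stood apart from the other 4, with the lowest stromal and macrophage sums and the highest pDC sums. In these bulk samples, fewer cells of a type and less RNA per cell cannot be told apart.

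Of the 83 genes, 80 read above background, taken as the level (62.5) that 95% of 1179 odorant and vomeronasal receptor genes stayed under, whose median was 18.7. The 3 at or below it were Cox7b2, Cox8b and Cox8c, isoforms known from testis (Cox7b2, Cox8c) and from heart and skeletal muscle (Cox8b). Across the 6 arrays the highest value of a gene was typically 1.25 times its lowest (median over the 83 genes), against 1.39 times over all 21640 probe sets with a single gene symbol. The 2 genes that varied most were Ndufa4l2, with 8.84 times between its highest and lowest array, and Cox7a1, with 2.08 times.

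None of the 83 genes passed an adjusted p of 0.05 in limma (Benjamini-Hochberg over 21640 probe sets), with the mouse left out of the fit or included as a block (a term for each mouse). The background was the same: 0% of all probe sets passed in either fit, and the smallest adjusted p among the 83 genes was 0.69 without the block and 0.32 with it. At an unadjusted p under 0.05, 5 genes (6.02%) read higher in KO and 0 lower, against 5.14% and 1.9% of all probe sets. The count of 5 was 0 without the KO or the WT array of mouse 3, 2 without the KO array of mouse 2 or the WT array of mouse 1 or 2, 3 without the KO array of mouse 1, and 1 (Atp5g2) with each array centred on its median. With the mouse as a block 5 were higher (6.02%) and 2 lower (2.41%), against 7.46% and 5.99%, and Cox6b2 stood among the 5 in place of Atp5mpl. The background depended on brightness. In the brighter part of all probe sets, split at the median and fitted alone without the block, 5 of its 78 subunit genes (6.41%) were higher and 0 lower, against 1.69% and 2.93% of its probe sets. The share higher was thus near the background over all probe sets and above that over the brighter ones, which was not tested. For 77 genes (92.8%) the 95% interval of the KO to WT ratio lay within 1.5-fold in either direction, against 69.2% of all probe sets. A single gene, Ndufa4l2, was lower by 2-fold or more (0.273% of all probe sets were) and 0 were higher by that much (0.0231% of all).

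The median log2 difference, KO minus WT, was 0.012 over the 83 genes and 0.028 over all probe sets, and -0.045 over the brighter part of the probe sets (its 78 subunit genes had 0.011). The members' median was -0.017 when arrays were centred on their own medians, -0.0054 with array weights and 0.057 after a further quantile normalization (0.011 over all probe sets), so its sign was not settled. Within mice 1, 2 and 3 the members' median was 0.049, -0.020 and 0.11, so mouse 2 ran against the other two. Complex medians were -0.0044 for complex I, -0.024 for II, 0.056 for III, 0.054 for IV and 0.0037 for V. The SD of the within-mouse medians was between 0.033 and 0.10 for the 5 complexes, and of their 5 medians only that of complex IV exceeded its own SD (0.041). It did not with arrays centred (0.025), with the mean of a gene's probe sets (0.022) or with the dimmest probe set (0.018). The medians of complexes I and II turned to 0.046 and 0.035 after the further quantile normalization. Differences between the complexes were not tested. Without the mouse 1 arrays the members' median was 0.039 against 0.036 for all probe sets, and the complex medians ran between -0.036 (II) and 0.10 (III). Without the mouse 3 arrays the median of complex III was -0.016.

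**Figure D1:**
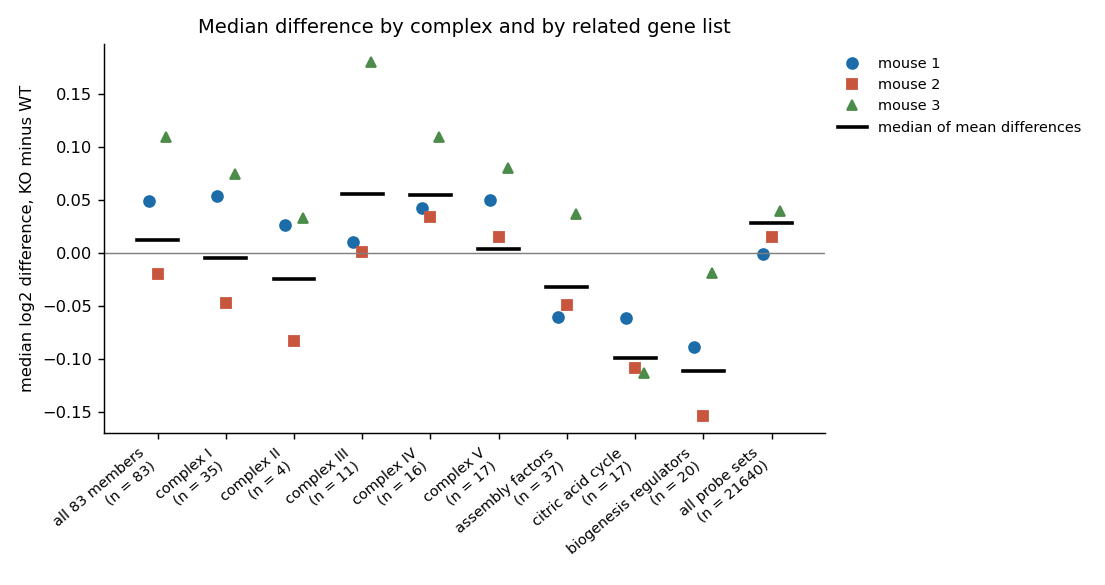
Median log2 difference, KO minus WT (vertical axis), for the 83 genes, each complex, related gene lists and all probe sets; points are medians of the differences within mouse 1, 2 or 3 and bars are medians of the mean differences. Every median over the complexes lies between -0.024 and 0.056, and the within-mouse medians of complexes I and II fall on both sides of 0.

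The groups did not overlap, with all KO arrays above all WT arrays, for 14 genes (16.9%), against 10.2% of all probe sets. These were Ndufa11, Ndufa3, Ndufa7 and Ndufb3 of complex I, Uqcr11 and Uqcrh of complex III, Cox4i1, Cox6b2 and Cox7b of complex IV, and Atp5e, Atp5g1, Atp5g2, Atp5l and Atp5mpl of complex V. All KO arrays lay below all WT arrays for 3 genes (3.61%, against 4.65% of all probe sets), Ndufs1, Ndufa9 and Ndufs4, all of complex I. The KO culture was above the WT culture of the same mouse in all 3 mice for 24 genes (28.9%, against 21.3%) and below it in all 3 for 7 (8.43%, against 17.4%). In the brighter part of the probe sets, all KO arrays lay above all WT arrays for 13 of the 78 subunit genes (16.7%) and below them for 3 (3.85%), against 3.86% and 7.71% of its probe sets. There the KO culture was the higher in all 3 mice for 23 subunit genes (29.5%) and the lower for 7 (8.97%), against 12% and 28.4%. By both counts the share with KO above WT was larger than the background. The share with KO below WT was smaller by both counts in the brighter part. Over all probe sets it was smaller by the count within mice, and near the background for groups without overlap (3.61% against 4.65%). The members' median difference was largest within mouse 3 (0.11, against 0.049 and -0.020 within mice 1 and 2). None of these shares was tested.

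**Figure D2:**
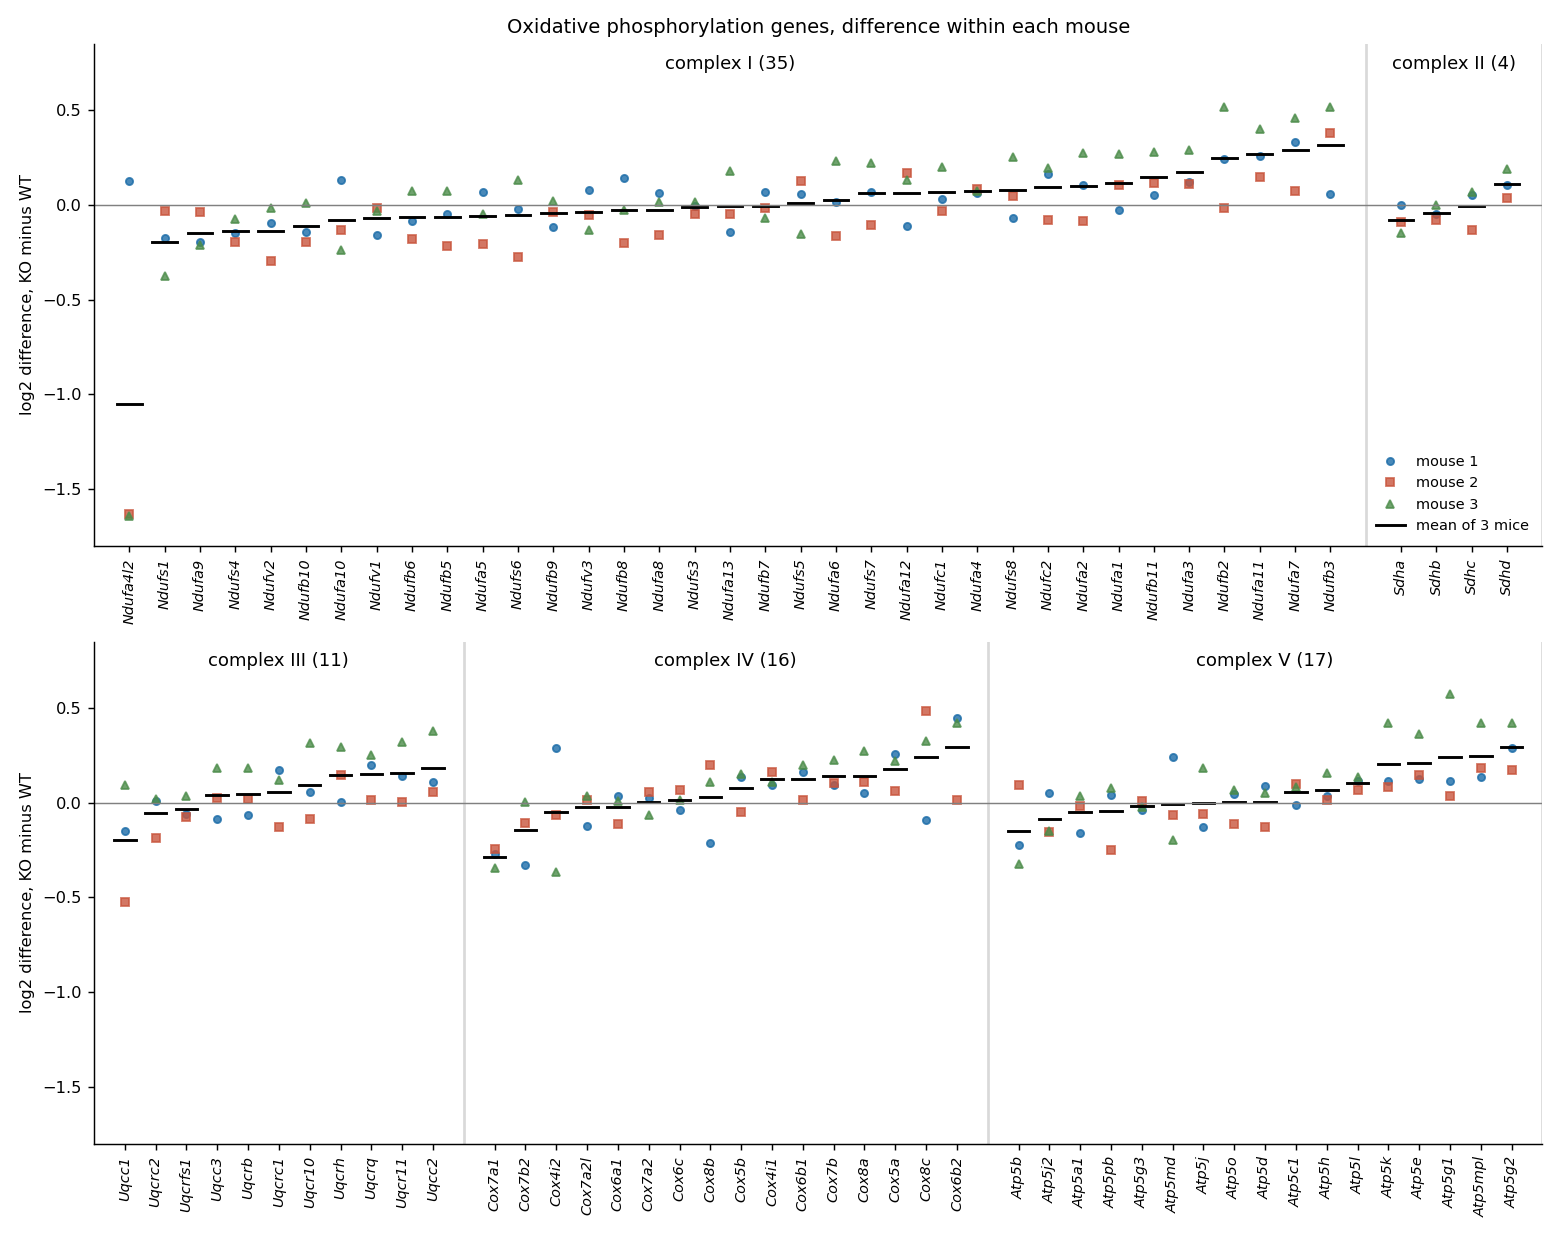
Log2 difference, KO minus WT (vertical axis), of each of the 83 genes (horizontal axis, ordered by mean within its complex), with a point for each mouse and a bar for the mean. Apart from Ndufa4l2 at -1.05, all means lie between -0.29 and 0.32.

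In complex I, which takes electrons from NADH, 16 of 35 genes had a mean above 0 and 19 below, and the 3 with an unadjusted p under 0.05 were accessory subunits that read higher in KO. Ndufa11, in the membrane arm, read 1233, 1141 and 1276 on the KO arrays of mice 1, 2 and 3, against 1029.7, 1031 and 966 on the WT arrays. On this probe set the groups did not overlap and the KO array was the higher in every mouse. The ratio was 1.20-fold (95% interval 1.03 to 1.40), a log2 difference of 0.27 (SE 0.091). Unadjusted p was 0.024 and adjusted p 0.69 in limma. A second probe set of Ndufa11, with means of 1026 in KO and 961 in WT, gave 0.094 (SE 0.11). Its groups overlapped, KO was below WT in mouse 2 (-0.11), and its unadjusted p was 0.44 in limma. Ndufa7, in the matrix arm, read 598, 569 and 660.3 in KO and 475, 541 and 481 in WT, a ratio of 1.22-fold (1.02 to 1.45), and its within-mouse differences were 0.33, 0.074 and 0.46. All KO arrays were again above all WT arrays, with the smallest gap in mouse 2. Ndufb3, in the membrane arm, read 259, 283 and 327 in KO, against 248.6, 218 and 229 in WT, and differed by 0.32 (SE 0.12). Its mouse 1 arrays were nearly equal, and the difference came from mice 2 and 3. Unadjusted p was 0.032 for Ndufa7 and 0.036 for Ndufb3, and adjusted p was 0.69 for each. Ndufb2, also in the membrane arm, differed by 0.25 (SE 0.15), with within-mouse values of 0.24, -0.015 and 0.52.

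**Figure D3:**
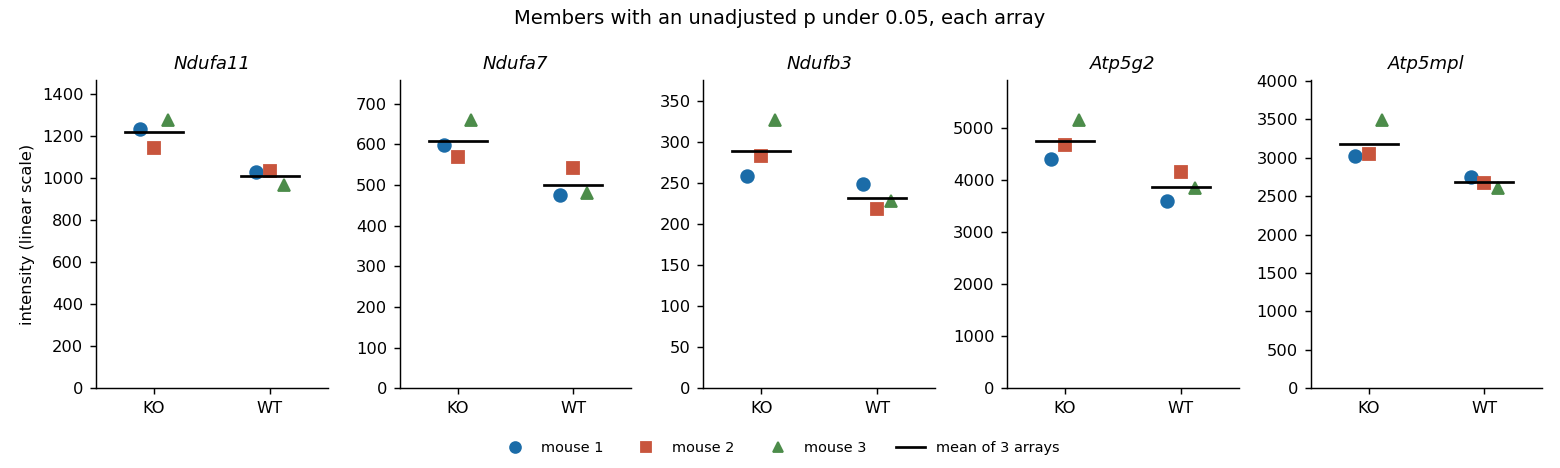
Intensity on a linear scale (vertical axis) of the 5 genes with an unadjusted p under 0.05, in KO and WT arrays, with a point for each mouse and a bar for the mean of 3 arrays. In each panel all 3 KO points lie above all 3 WT points, and none of the 5 has an adjusted p under 0.69.

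The core of complex I, which holds the flavin and the iron-sulfur clusters, had a median near that of the brighter probe sets. Its 6 measured nuclear genes (Ndufs1, Ndufs3, Ndufs7, Ndufs8, Ndufv1 and Ndufv2, a grouping made after the values were seen) had a median of -0.040, with 4 of 6 genes below 0. Over the brighter part of all probe sets, which held all 35 complex I genes, the median was -0.045 and 61.4% lay below 0. Ndufs1, the iron-sulfur subunit at the electron entry, read 254, 284 and 244 on KO and 286, 289.7 and 317 on WT arrays and differed by -0.19 (SE 0.10). Every KO array was below every WT array, by little in mouse 2, and unadjusted p was 0.10. Ndufv1, which binds the flavin, differed by -0.068 (SE 0.088), and Ndufa9 and Ndufs4, accessory subunits named here for their groups without overlap, by -0.15 (SE 0.088) and -0.14 (SE 0.093). The other 28 complex I genes, Ndufa4l2 aside, had a median of 0.0033, with 14 above 0 and 14 below.

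The promoter windows of genes with an unadjusted p under 0.05 are shown because many respiratory chain genes are known targets of NRF1 and of ETS factors such as GABP. The genes were picked by that p, and shared control of them was not tested. RefSeq windows (GRCm38.p6, 250 bases before to 50 after the start) were matched for 69 of the 83 genes, 74 windows in all. Atp5mpl, which also had an unadjusted p under 0.05, was not among the 69 and is not shown. The 150 bases before the start are printed 5′ to 3′ on the strand of the gene, for Ndufa11 (chr17:56717612-56717761, plus strand), Ndufa7 (the first of its 2 windows, chr17:33824422-33824571, plus), Ndufb3 (chr1:58586247-58586396, plus) and Atp5g2 (chr15:102671048-102671197, minus), with NRF1 letters in capitals:
Ndufa11: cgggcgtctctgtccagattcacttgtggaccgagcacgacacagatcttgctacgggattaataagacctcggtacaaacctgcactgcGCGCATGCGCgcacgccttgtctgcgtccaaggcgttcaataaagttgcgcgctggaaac
Atp5g2: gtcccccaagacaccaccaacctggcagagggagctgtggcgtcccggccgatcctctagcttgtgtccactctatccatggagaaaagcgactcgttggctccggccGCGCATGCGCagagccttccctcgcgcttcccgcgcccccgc
Ndufa7: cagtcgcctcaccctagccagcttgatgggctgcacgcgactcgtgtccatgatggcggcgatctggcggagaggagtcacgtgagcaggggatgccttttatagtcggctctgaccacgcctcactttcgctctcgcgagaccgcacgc
Ndufb3: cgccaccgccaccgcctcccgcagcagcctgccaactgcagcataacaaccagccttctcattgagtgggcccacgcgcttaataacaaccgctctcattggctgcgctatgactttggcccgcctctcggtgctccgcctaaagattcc
The same 10 letters stood at -60 to -51 before the start of Ndufa11 and at -42 to -33 before that of Atp5g2, and the printed windows of Ndufa7 and Ndufb3 held neither NRF1 nor ETS letters. Searched on both strands, the NRF1 letters GCGCATGC occurred in 13.5% of the member windows and 2.71% of all 32851 windows, and the ETS letters CCGGAAG in 23% and 8.86%. The YY1 letters AAGATGGC were in 14.9% of member windows and 2.75% of all, the SP letters GGGCGG in 41.9% and 35.7%, CCAAT in 43.2% and 37.4%, and ACGTG, the core bound by hypoxia-inducible factors, in 27% and 19.6%. Matches of different motifs may share bases. Either NRF1 or ETS letters were in 22 member windows (29.7%, against 11% of all). A match describes the letters and was not tested for binding in these cells.

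In complex II, succinate dehydrogenase, the means of the 4 genes lay between -0.078 and 0.11. Sdha, the flavoprotein that oxidises succinate, read 804, 697 and 641 on the KO arrays, against 802, 742 and 709 on the WT arrays, and differed by -0.078 (SE 0.12). Sdhb, the iron-sulfur subunit, read 737, 759 and 686 in KO and 762, 801 and 686 in WT, a difference of -0.042 (SE 0.10). Of the membrane anchors, Sdhc read 913, 1008 and 1018 in KO and 882, 1107 and 972 in WT and differed by -0.0057 (SE 0.12). Sdhd read 359, 429 and 473 in KO and 333, 419 and 414 in WT and differed by 0.11 (SE 0.15), with KO above WT in each mouse. The groups overlapped for all 4, unadjusted p ran between 0.48 and 0.96, and each 95% interval lay within 1.5-fold. The 4 subunits did not share a direction, and the sign of Sdhb and Sdhc turned when the arrays were quantile normalized again.

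In complex III, the bc1 complex, 8 of 11 genes had a mean above 0 and none had an unadjusted p under 0.05. The 5 small subunits (Uqcrb, Uqcrh, Uqcrq, Uqcr10 and Uqcr11, grouped after the values were seen) all had a mean above 0, with a median of 0.15 overall and of 0.054, 0.012 and 0.29 within mice 1, 2 and 3. Uqcr11 read 1292, 1203 and 1340 on KO arrays, against 1172, 1202 and 1072 on WT arrays, and differed by 0.15 (SE 0.10) with an unadjusted p of 0.15. A second probe set of Uqcr11 gave 0.049 (SE 0.11), with overlapping groups and KO below WT in mice 1 and 2, and the other probe sets of Uqcrb gave -0.056 and -0.018 beside 0.044 for the kept one. Uqcrh, the hinge protein near cytochrome c1, read 3372, 3616 and 3859 in KO and 3362, 3273 and 3149.6 in WT and differed by 0.15 (SE 0.093). On the kept probe sets of both genes all KO arrays were above all WT arrays, but Uqcr11 differed hardly at all within mouse 2 and Uqcrh hardly at all within mouse 1. Uqcrq differed by 0.15 (SE 0.10) and Uqcr10 by 0.093 (SE 0.14), and the sign of Uqcr10 turned without the KO array of mouse 3 (-0.020). The core proteins Uqcrc1 and Uqcrc2 and the Rieske protein Uqcrfs1 had means between -0.054 and 0.056. Of the assembly factors for cytochrome b, Uqcc2 read 531, 589.5 and 688 in KO and 492, 567 and 529.6 in WT and differed by 0.18 (SE 0.13), whereas Uqcc1 read 123, 79.5 and 107 in KO and 137, 115 and 101 in WT and differed by -0.20 (SE 0.20). The Uqcc1 mean came mostly from mouse 2, with within-mouse differences of -0.15, -0.53 and 0.093.

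In complex IV, cytochrome c oxidase, 11 of 16 genes had a mean above 0. Its 10 ubiquitous genes had a median of 0.10, with 8 above 0 and within-mouse medians of 0.071, 0.057 and 0.13, whereas the 6 tissue-restricted ones had a median of -0.0087 and lay on both sides of 0, and this contrast was not tested. None of the 16 had an unadjusted p under 0.05 without the block. Cox4i1, the ubiquitous form of a regulatory subunit, read 3565, 3649 and 3557 on KO arrays, against 3343, 3257 and 3297 on WT arrays, and differed by 0.12 (SE 0.080). Cox7b read 2497, 2514 and 2761 in KO and 2338, 2343 and 2359 in WT and differed by 0.14 (SE 0.088). All KO arrays were above all WT arrays for both, by 1.09-fold and 1.10-fold, with the 95% interval of each including 1. Cox8a, Cox6b1 and Cox5a, also ubiquitous supernumerary subunits, differed by 0.14 (SE 0.093), 0.12 (SE 0.091) and 0.18 (SE 0.14), each with KO above WT in all 3 mice and with overlapping groups. Cox7a2 read 1026, 1163 and 1074 in KO and 1009, 1121 and 1124 in WT and differed by 0.0042 (SE 0.10), close to 0 and negative once arrays were centred.

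In complex V, ATP synthase, 10 of 17 genes had a mean above 0, and the 2 with an unadjusted p under 0.05 were Atp5g2 and Atp5mpl. The genes Atp5g1, Atp5g2 and Atp5g3 encode the same mature c subunit of the proton-driven ring. Atp5g2 read 4402, 4671 and 5147 on the KO arrays of mice 1, 2 and 3, against 3600.4, 4148 and 3845 on the WT arrays, 1.23-fold (95% interval 1.03 to 1.46). Its log2 difference was 0.29 (SE 0.11), with an unadjusted p of 0.030 and an adjusted p of 0.69 in limma, and the KO array was the higher in each mouse. Atp5g1 read 877, 893 and 1125 in KO and 811, 874 and 756 in WT and differed by 0.24 (SE 0.13), mostly through mouse 3. Atp5g3 read 1420, 1747 and 1728 in KO and 1459, 1737 and 1758 in WT and differed by -0.019 (SE 0.13), with groups that overlapped throughout. Atp5mpl, a small proteolipid of the membrane part, read 3018, 3042 and 3492 in KO, against 2746, 2677 and 2611 in WT, 1.19-fold (1.01 to 1.40), with an unadjusted p of 0.042 and an adjusted p of 0.70, and with the mouse as a block an unadjusted p of 0.056. Atp5e, the epsilon subunit of the F1 stalk, read 3924, 3998 and 4461 in KO and 3602, 3611 and 3473 in WT and differed by 0.21 (SE 0.093), with groups that did not overlap. Atp5k, subunit e of the membrane part, differed by 0.21 (SE 0.13). Atp5b, the catalytic beta subunit, read 1949.5, 2331 and 1969.7 in KO and 2278, 2186 and 2467 in WT and differed by -0.15 (SE 0.11), with mouse 2 against the other two. The 5 F1 genes had a median of 0.0037, so the differences of Atp5e and Atp5b lay on opposite sides of it.

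Probe sets of the same gene did not always give the same value. For 17 genes the array had several probe sets, 24 beyond those kept, and 6 more that pair a subunit with another symbol were left out. Cox7c and Ndufb4 had no other probe set and so are not among the 83 genes, while Ndufs5 was read by a probe set of its own. The 3 probe sets of Atp5g2 gave 0.29, 0.58 and 0.22, each with an unadjusted p under 0.05 (0.030, 0.040 and 0.047). The second probe set of Ndufa11 gave 0.094 (SE 0.11) beside 0.27 for the kept one. For Atp5md, a membrane subunit, the kept probe set gave -0.0083 and the other two 0.34 and 0.22, and for Atp5l, subunit g, 1 of 4 others gave -0.26 beside 0.11 for the kept one. Many of these genes have near-identical processed copies in the genome whose RNA the probes could share, so their values are uncertain to that extent.

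The largest difference among the 83 genes was that of a tissue-restricted gene. Ndufa4l2, a paralogue of Ndufa4 that is induced by hypoxia and is known from pericytes and smooth muscle, read 52.5, 99.6 and 136 on the KO arrays of mice 1, 2 and 3, against 48.1, 309 and 425 on the WT arrays. In mice 2 and 3 the KO arrays were well below the WT arrays, while both mouse 1 arrays were low and about equal. The mean log2 difference was -1.05 (SE 0.85), with an unadjusted p of 0.26 in limma, 0.019 with the mouse as a block. Without both mouse 1 arrays, which left 2 KO and 2 WT arrays, it was -1.64 (SE 0.21) with an adjusted p of 0.040 in limma. Ndufa4l2 was then the only one of the 83 genes to pass, against 0.499% of all probe sets. No gene of the 83 passed without both arrays of mouse 2 or of mouse 3. The pass thus depended on leaving out the mouse whose arrays were about equal. At an unadjusted p under 0.05 the comparison without mouse 1 had 4 genes higher (Atp5g2, Atp5mpl, Cox8c and Ndufb3) and 1 lower, against 9.77% and 7.79% of all probe sets. The stromal sums moved with Ndufa4l2, being low in both mouse 1 arrays and lower in KO than in WT in mice 2 and 3, and their part in its difference was not tested.

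Ndufa4, the ubiquitous partner, now counted as a complex IV subunit by structure, read 1338, 1907 and 1599 on KO arrays, against 1282, 1799.9 and 1519.8 on WT arrays, and differed by 0.073 (SE 0.18) with within-mouse values of 0.061, 0.084 and 0.073. It was slightly higher in KO in each mouse, while its highest array read 1.49 times its lowest, which were arrays of different mice. Cox7a1, the isoform of heart and skeletal muscle, read 79.0, 92.1 and 129.6 in KO, against 95.5, 109 and 164 in WT, and differed by -0.29 (SE 0.26). Its groups overlapped, but KO was below WT in each mouse (-0.27, -0.25 and -0.34), and with the mouse as a block its unadjusted p was 0.021 and its adjusted p 0.33. Like the stromal sums, Cox7a1 was highest in the WT array of mouse 3 and lowest in the KO array of mouse 1. Unlike them, it read higher in the WT array of mouse 1 (95.5) than in the KO array of mouse 2 (92.1). The stromal sums there were 669 and 4358. The part of other cells in Cox7a1 was not tested. Cox4i2, the lung isoform, read 69.8, 68.1 and 78.6 in KO and 57.3, 71.3 and 101 in WT, with within-mouse differences of 0.29, -0.065 and -0.37 that did not share a sign. Cox6b2, the testis isoform, read 73.6, 73.2 and 96.5 in KO and 54.1, 72.5 and 72.1 in WT and differed by 0.29 (SE 0.17), with an unadjusted p of 0.13 and of 0.049 with the block. All 6 of its arrays lay near the background level of 62.5. Cox8c, at 34.7, 46.2 and 39.2 in KO and 37.0, 33.0 and 31.3 in WT, Cox8b and Cox7b2 were below background on average, and their differences of 0.24, 0.031 and -0.15 are differences at that level.

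**Figure D4:**
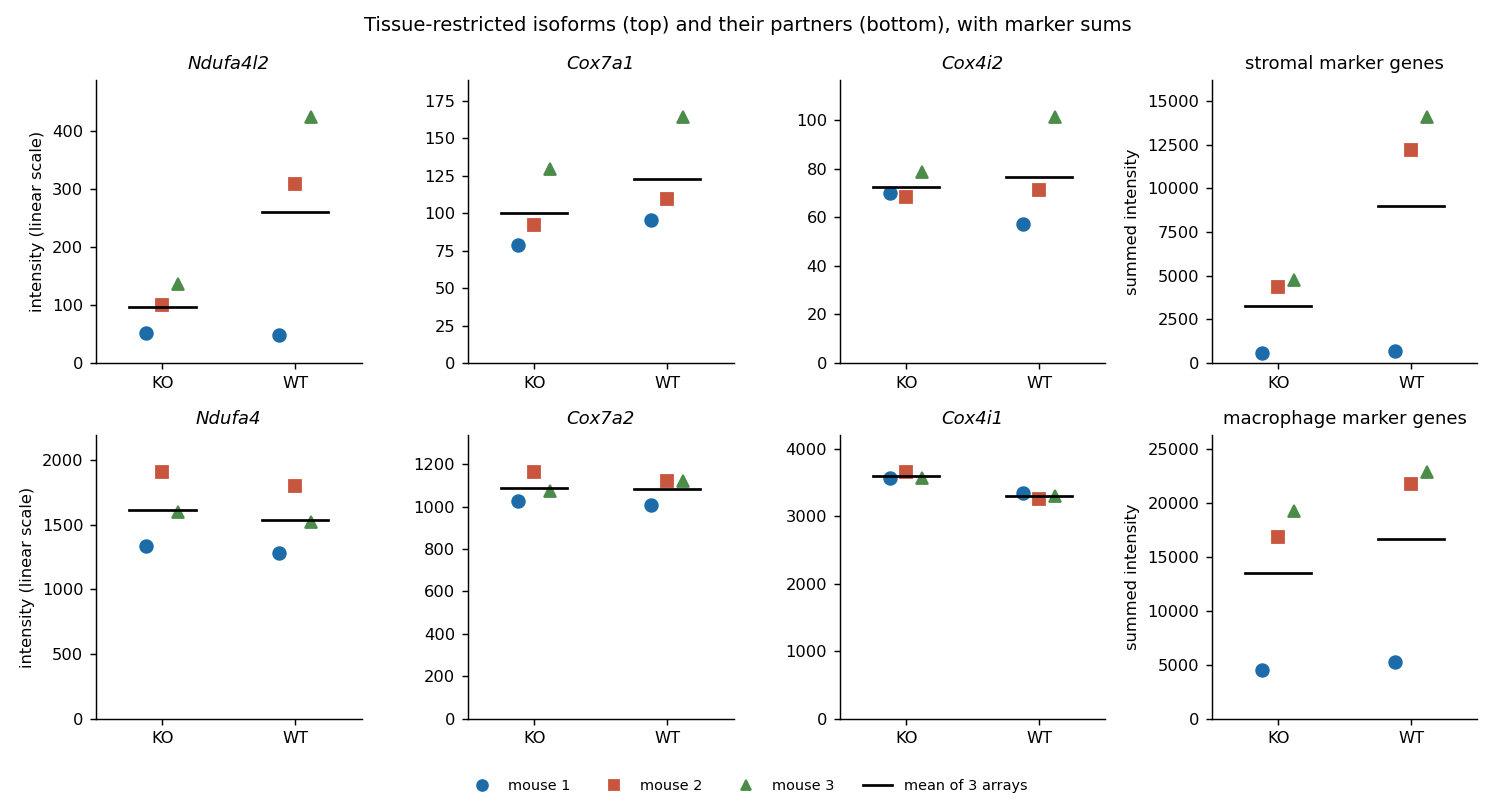
Intensity on a linear scale (vertical axis) in KO and WT arrays of 3 tissue-restricted isoforms (top row) and their ubiquitous partners (bottom row), with the summed intensity of 10 stromal and 10 macrophage marker genes in the right column; points are arrays by mouse and bars are means of 3 arrays. Ndufa4l2 and the stromal sums are low in both mouse 1 arrays and lower in KO than in WT in mice 2 and 3, while Ndufa4 and Cox7a2 lie close together in the groups.

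Differences between the mice were larger than those between the groups for a part of the genes. Both mouse 1 arrays were below the other 4 for 16 genes (19.3%, against 14.5% of all probe sets) and above them for 9 (10.8%, against 21.6%). Those below included Sdhc, Sdhd, Cox5a, Cox7a2, Uqcr10, Atp5g3 and Ndufa4, and those above included Sdha, Uqcc1, Ndufs3, Ndufs8, Ndufv2 and Atp5c1, picked here to show that complexes I, II, III and V were on both sides. Within complex II, Sdha was thus highest and Sdhc and Sdhd lowest in mouse 1.

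Of 80 other measured genes of the pathway, in 5 lists chosen with earlier results known, 1 (1.25%) had an unadjusted p under 0.05 and a higher mean in KO (Esrra) and 1 (1.25%) a lower one (Dld), against 5.14% and 1.9% of all probe sets. With the mouse as a block 3 (3.75%) were higher (Cox20, Esrra and Sco1) and 4 (5%) lower (Dlat, Dld, Myc and Nubpl), against 7.46% and 5.99%. Of the mitochondrially encoded subunits 2 were measured, ND3 of complex I at 8269, 7593 and 7877 in KO and 8124, 7586 and 7276 in WT, and COX2 of complex IV at 7207, 6465 and 6568 in KO and 7124, 6717 and 6287 in WT, with differences of 0.047 (SE 0.092) and 0.0083 (SE 0.10). Cytochrome c (Cycs), the carrier between complexes III and IV, read 902, 825 and 795 in KO and 886, 1033 and 1022 in WT and differed by -0.22 (SE 0.11), with mouse 1 against the others, and cytochrome c1 (Cyc1) of complex III differed by -0.060 (SE 0.093). Among 37 measured assembly factors of 42 listed, 14 had a mean above 0 and 23 below (median -0.032), and 0 had an unadjusted p under 0.05 in limma without the block. With it Cox20 and Sco1, for complex IV, and Nubpl, for complex I, did (0.046, 0.029 and 0.024). Sco1, a copper chaperone of complex IV, differed by 0.26 (SE 0.13) and Sdhaf2, which attaches the flavin to Sdha, by -0.19 (SE 0.093). Of 20 measured regulators of mitochondrial biogenesis, 16 had a mean below 0 (median -0.11, and -0.088, -0.15 and -0.019 within mice 1, 2 and 3) and 1, Esrra, had an unadjusted p under 0.05 without the block, in the opposite direction. A mean below 0 was found for 44.1% of all probe sets and 61.4% of the brighter ones. Myc of the same list, named after its values were seen, read 63.5, 177 and 203 in KO and 80.1, 347 and 442 in WT, with within-mouse differences of -0.34, -0.97 and -1.12. Its unadjusted p was 0.32 without the block and 0.0020 with it (adjusted 0.29). Like the stromal sums it was low in both mouse 1 arrays and lower in KO than in WT in mice 2 and 3, and the part of other cells in it was not tested.

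Esrra, the estrogen-related receptor that drives many respiratory genes, read 119, 126 and 131 on KO arrays, against 102, 114 and 97.2 on WT arrays, 1.20-fold (1.02 to 1.42), with an unadjusted p of 0.035 and an adjusted p of 0.69. All KO arrays were above all WT arrays, whereas Gabpb1, a subunit of the ETS factor GABP, read 121, 100.3 and 103 in KO and 124, 119 and 123 in WT and differed by -0.18 (SE 0.10). Of 17 measured genes of the citric acid cycle and pyruvate dehydrogenase, which feed the chain, 12 had a mean below 0, with a median of -0.099 and within-mouse medians of -0.062, -0.11 and -0.11. Dld, a subunit shared by pyruvate and oxoglutarate dehydrogenases, read 392, 402 and 382 in KO, against 464, 468 and 452 in WT, 0.85-fold (0.74 to 0.97), with an unadjusted p of 0.027 and an adjusted p of 0.69. Dlat, the acetyltransferase of pyruvate dehydrogenase, read 160.4, 186 and 177 in KO and 196, 219 and 201 in WT and differed by -0.24 (SE 0.10), with an unadjusted p of 0.054 without the block and 0.045 with it. For both genes every KO array was below every WT array. The medians of the citric acid cycle (-0.099) and the biogenesis regulators (-0.11) lay about 0.1 below that of the subunits (0.012). Those of the assembly factors (-0.032) and of the list with Cycs and Cyc1 (-0.059) were nearer, and the 2 mitochondrially encoded genes had 0.028. Over all probe sets the difference varied with brightness, with a median of 0.10 in the dimmer part and -0.045 in the brighter part. The brighter part held 78 of the 83 subunit genes, with a median of 0.011. Neither the gaps nor the part of brightness in them was tested.

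The marker genes with the smallest p in each list, picked for that p, are given here. Fcrls, a macrophage gene, read 53.0, 96.3 and 132 in KO and 175, 530.4 and 450.3 in WT, and Mrc1, a macrophage receptor, 662, 592 and 675 in KO and 640.3, 1006 and 1619 in WT. Ngp and Ltf, neutrophil granule genes, differed by -2.26 and -1.42, whereas Mpo and Elane of the same list differed by 0.44 and 0.12. Acta2 and Col3a1 of stromal cells differed by -1.56 and -0.88, and the B lineage factors Pax5 and Ebf1 by -0.63 and -0.69. Ly6d and Tlr9 of pDCs differed by 0.76 and 0.56, Cd4 of the T lineage list by 0.38 and the erythroid gene Alas2 by 0.024. Like the pDC sums, Cd4 was highest in both mouse 1 arrays (1217 in KO and 802 in WT), so its cell of origin is not settled. Cd3d of T cells and Klf1 of erythroid cells were below background on average, and their differences of 0.26 and 0.40 are differences at that level. Elane, Alas2, Cd3d and Klf1 apart, each of these exceeded in size the difference of every subunit but Ndufa4l2. The part of other cells in the subunits' values was not tested.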

How the data were processed

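The authors deposited intensity values on a linear scale for 34760 probe sets of the Mouse Gene 1.0 ST array, normalized between arrays by a method not given in the sources used here. The medians of the 6 arrays lay between 69.0 and 72.9. GEO's platform annotation paired 21640 probe sets with a single symbol, 1321 with several and 11799 with none. Only the first kind was used. Values were log2-transformed and fitted with limma 3.58.1 in R 4.3.3 (KO minus WT, two-sided, Benjamini-Hochberg over 21640 probe sets). The procedure was run on simulated data whose arrays were drawn independently. That run had no mouse effect, so it could not examine the pairing of cultures. Same-numbered cultures came from the same mouse, and their deviations from the group means correlated (r = 0.81, 0.51 and 0.67), so fitting each mouse as a block was tried as well. Further alternatives were the normalization, the handling of low values, the choice of probe set, the moderation, array weights, the membership and leaving out arrays.

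Named genes were, in complexes I, III, IV and V, the 4 with the smallest p and the 2 further ones with the largest difference, all of complex II, the isoforms of complexes I, IV and V, and the 2 with the smallest p of each other list. The genes and lists were chosen with earlier results of these data known.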

Additional observations from a re-analysis of the deposited data

How the results depend on the processing

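The count of genes called at an adjusted p was 0, and between 0 and 1 (Ndufa4l2) when arrays or mice were left out in turn. The count higher at an unadjusted p was 5. With intensities floored at the 20th percentile it was 10 of the 83 genes, when 1100 of all 21640 probe sets were higher and 659 lower. With the mean of a gene's probe sets it was 4, as Ndufa11 dropped out (unadjusted p of 0.12 in limma). It was 1 with arrays centred (Atp5g2) and between 0 and 4 with arrays left out. It was 0 whenever the KO array of mouse 3, its WT array or both were left out. The count lower was 0, and it was 2 with the replicate block, 1 with the floor (Ndufa9), 1 with array weights and between 0 and 1 with arrays left out. The complex V median of 0.0037 was 0.053 after a further quantile normalization, 0.045 with the mean of a gene's probe sets, 0.054 with the dimmest probe set, and -0.028 to 0.060 with arrays left out. The complex IV median was 0.10 without the tissue-restricted isoforms, and that of complex II ran between -0.059 and 0.044 with arrays left out. The causes of these shifts were not tested.

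Single genes near 0 changed sign: a further quantile normalization gave Sdhb 0.024, Sdhc 0.047, Cox8b -0.069 and Atp5g3 0.037, and centring gave Cox7a2 -0.026. Leaving out arrays gave ranges of -0.10 to 0.0071 for Sdhb, -0.084 to 0.081 for Sdhc, -0.047 to 0.045 for Cox7a2, -0.055 to 0.20 for Ndufa4, -0.020 to 0.18 for Uqcr10, -0.075 to 0.15 for Cox8b, -0.24 to 0.17 for Cox4i2 and -0.11 to 0.078 for Atp5g3. Over all probe sets, 1113 were higher and 412 lower at an unadjusted p under 0.05 (73% higher), 568 and 353 after quantile normalization (61.7%), 554 and 469 after centring (54.2%), 1615 and 1296 with the replicate block (55.5%) and 183 and 317 with dim probe sets left out (36.6%). At the floor Cox7b2 had no value. The block changed no call at the adjusted p.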
